A study of Rattus norvegicus with 8 samples.

Results

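Glutathione, thioredoxin and peroxide defense is carried on these rat arrays by 66 genes of the 26334 genes named in the array design, measured with 72 oligos on 117 spots of each array. They were chosen by gene name: the glutathione S-transferases (Gst, Mgst), glutathione peroxidases (Gpx), peroxiredoxins (Prdx), thioredoxins and related genes (Txn), superoxide dismutases (Sod), Gclc and Gclm, and Cat, Gss, Gsr, Nqo1, Nfe2l2, Keap1 and Srxn1. RNA came from whole retinas of female Lister Hooded rats that were 8 weeks old at surgery on the right optic nerve and were killed 2 weeks later. In the ONC group the nerve was crushed with forceps for 10 s, 3 mm behind the disc. CTR retinas were sham controls, operated on without a crush. There were 4 retinas in each group, and each of the 4 arrays held 2 retinas, 1 in the red channel (Cy5) and 1 in the green channel (Cy3). The question was which of these genes differed between crushed and sham retinas.

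Glutathione is a small thiol peptide built by glutamate-cysteine ligase and glutathione synthetase, spent by peroxidases and transferases to remove peroxides and reactive lipids, and returned to its reduced form by glutathione reductase. Thioredoxins with their reductases supply electrons to the peroxiredoxins in parallel, and the transcription factor Nrf2, held in check by Keap1, controls many of these genes. The retina uses much oxygen and holds easily oxidized lipids, and its Müller glia are known as a large store of glutathione.

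By the labels, CTR retinas were always in Cy5 and ONC retinas always in Cy3, with the same number on the same array, so dye and surgery cannot be told apart. The study's methods describe another layout, in which an array held 2 CTR or 2 ONC retinas. Groups were taken from the labels alone, and CTR and ONC below mean channels labeled so. Spots well above background made up 66.8% (ONC4) to 79.4% (CTR1) of a channel, and the number of arrays limits precision. The retina's own interneurons were seen: all 6 bipolar and all 6 amacrine markers passed the filter.

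Retinal ganglion cells (RGCs), whose axons form the optic nerve, are known to be lost after crush. Their 9 markers on the array all passed the filter, and the brightest oligo on average was that of Stmn2. The median log2 difference of these markers from their gene means was -1.60, 1.18, -1.27 and -1.0 in CTR1 to CTR4, against 1.33, 1.32, 1.37 and -1.19 in ONC1 to ONC4. CTR2 and ONC4 thus stood apart from the other 3 channels of their label, and 3 channels labeled ONC had the high marker levels. For genes that include such markers, Mgst3 and the oxidase subunit Cyba, the direction by label is opposite to the study's. The study reports RGC markers lower and Cyba higher after crush, on its arrays and by quantitative PCR of other retinas. It also counted fewer labeled RGCs in crushed retinas. Higher and lower below are by label, and whether they are the direction of crush was not tested. Results that rest on CTR2 and ONC4 are therefore also given without them, an alternative chosen after seeing the data.

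None of the 56 members that passed the filter on dim and outlying spots was called between ONC and CTR by limma at an adjusted p under 0.05, a level that 81 of 16307 genes reached (0.497%). At an unadjusted p under 0.05 there were 18 members (all genes 18.6%), 8 higher (all genes 8.7%) and 10 lower in ONC (all genes 9.85%). The methods' t-test, used here without the fold cutoff per gene that the methods add to it, gave 15 members before adjustment (all genes 16.4%) and 0 after it. With the array as a block, limma called 6 members (all genes 7.69%), and all 6 fell in ONC (all genes 4.61%): Txn2 and Txndc12 of the thioredoxins, the thioredoxin inhibitor Txnip, the peroxidase Gpx4, the membrane transferase Mgst1 and the glutathione synthetase Gss. Without the block, limma on the same values called none of the 6.

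The median log2 fold change of the 56 members was -0.03, beside -0.01 over all genes, and 33 members were lower and 23 higher. Lower members numbered 28 of 56 without loess and 27 without CTR3. Within 0.25 of 0 lay 37 members (66.1%), a smaller share than of all genes (75.1%). In 14 members the 4 ONC channels did not overlap the 4 CTR channels (all genes 12.7%, by chance 2.86%), 4 of them higher (Gstt2, Gstz1, Prdx1 and Srxn1, all genes 5.76%) and 10 lower (all genes 6.92%). The 10 were Txn2, Mgst1, Gpx4, Txndc12, Gsto1, Gss, Nfe2l2, Txnip, Keap1 and Txnrd2. The shares of members at an unadjusted p under 0.05 (32.1%), called with the block (10.7%) and without overlap (25.0%) were each above the share of all genes, and that difference was not tested. In whole retina, fewer cells of a type and less RNA per cell cannot be told apart.

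The count of calls moved with the channels and the scaling. Without CTR2 and ONC4, limma called 3 members (all genes 2.54%): by label Gpx2 and Mgst3 were higher and Txn2 was lower. Groups did not overlap in 24 members then (all genes 31.7%), where chance with 3 against 3 channels gives 10.0%. With quantile normalization of average intensity it called 4 (all genes 2.53%), Gpx4, Mgst1, Txn2 and Txndc12, all lower. When channels were only scaled to their medians, without loess, it called 15 (all genes 19.6%), 8 higher and 7 lower, and the 8 higher were Cat, Gsr, Gstm2, Gstm6, Gstm6l, Gstt2, Mgst2 and Txnrd3. Leaving out a channel in turn gave 0 calls each time (all genes 38 without ONC2 and 0 in each other leave-out). The 18 members at an unadjusted p under 0.05 became 11 without CTR3 and 10 without ONC3. The share of all genes at that level without these channels is not given here, so the drop cannot be ascribed to the members.

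**Figure D1:**
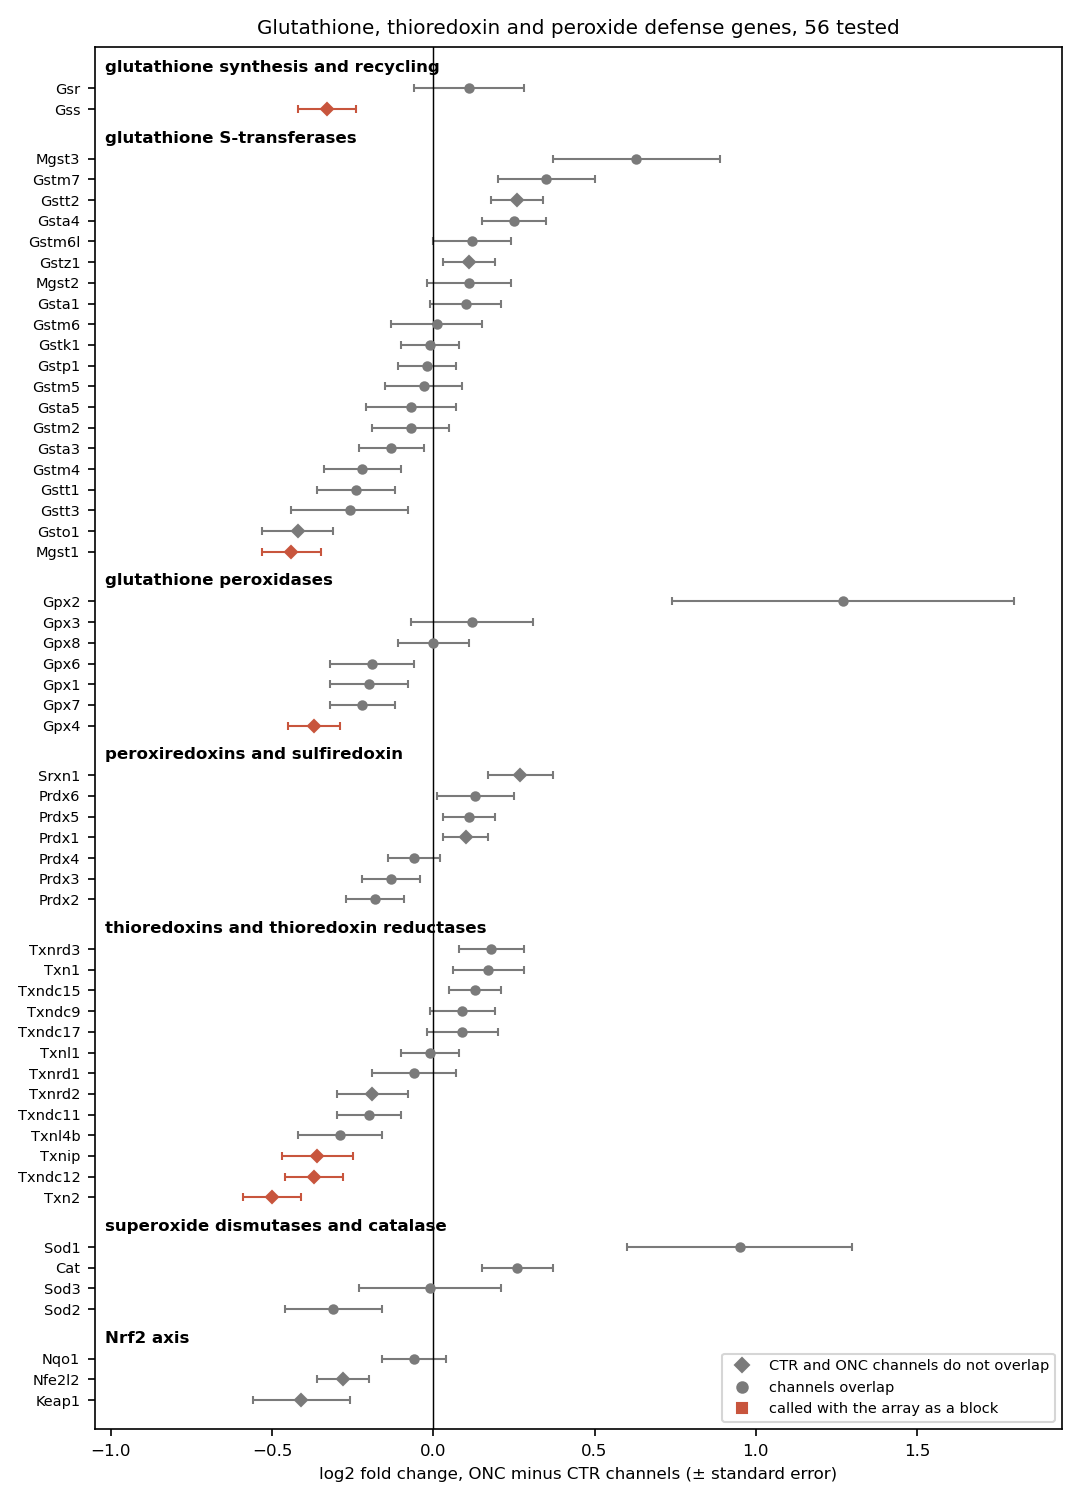
Log2 fold change of each of the 56 members, ONC minus CTR channels, by role, with its standard error from limma without a block (4 channels against 4). Red symbols are the 6 members called with the array as a block, all to the left of 0, and diamonds mark the 14 members whose channels do not overlap. Gpx2 lies farthest right, at 1.27, with the widest bar.

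Glutathione synthesis and recycling has 4 members, of which Gss and Gsr passed the filter. Gss encodes glutathione synthetase, which adds glycine in the last step of synthesis. Its oligo of 60 bases, shown because the call rests on it alone, is listed in the array design at chr3:146058010-146059080 (rn4, minus strand), a span of 1071 bases, so its bases are not adjacent in the genome.
Gss oligo: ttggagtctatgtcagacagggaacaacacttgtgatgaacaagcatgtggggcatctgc
The log2 level of Gss over the channel median was -0.86, -0.97, -0.91 and -0.88 in CTR1 to CTR4, against -1.09, -1.39, -1.29 and -1.16 in ONC1 to ONC4. Each ONC channel lay below each CTR channel. The log2 fold change was -0.33 (SE 0.09), lower on 4 of 4 arrays, with an adjusted p of 0.105 without the block and 0.0432 with it. With the scanner's processed signals it was -0.16 (adjusted p = 0.364).

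Gclc, the catalytic subunit of glutamate-cysteine ligase, was bright in all 8 channels but left out for an outlier flag in CTR4. With flags not applied, an alternative chosen after seeing the data, its levels were 1.28, 1.38, 1.16 and 1.03 in CTR, against 1.06, 1.01, 0.88 and 0.68 in ONC, a difference of -0.30 (SE 0.11, adjusted p = 0.213). The groups overlapped there, since ONC1 lay above CTR4. Gclm, the modifier subunit, was well above background in 0 of 8 channels and was not tested. Gsr, the glutathione reductase that restores the reduced form, ran from -3.61 to -3.12 in CTR and from -3.62 to -2.90 in ONC. Its fold change of 0.11 (SE 0.17, adjusted p = 0.777) became -0.09 without CTR2 and ONC4, and 0.65 with an adjusted p of 0.037 without loess.

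Glutathione S-transferases join glutathione to reactive compounds, and 20 of the 25 on the array were tested, 9 higher and 11 lower with a median of -0.01. Mgst1, a transferase of the endoplasmic reticulum and outer mitochondrial membrane that also reduces lipid peroxides, had levels of -0.31, -0.31, -0.26 and -0.03 in CTR1 to CTR4. In ONC1 to ONC4 they were -0.64, -0.58, -0.69 and -0.78. No ONC channel reached a CTR channel. The log2 fold change was -0.44 (SE 0.09), on 4 of 4 arrays, with an adjusted p of 0.0661, 0.0482 with the block and 0.0769 without CTR2 and ONC4.

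Gsto1, an omega transferase that also reduces dehydroascorbate, ran from 1.45 to 1.85 in CTR and from 1.02 to 1.35 in ONC. Its difference of -0.42 (SE 0.11) had an adjusted p of 0.105, and 0.0526 with the block. Gstt2, a theta transferase, ran from -0.53 to -0.38 in CTR and from -0.29 to -0.14 in ONC, a difference of 0.26 (SE 0.08, adjusted p = 0.124). Both genes had groups that did not overlap, in opposite directions, and Gsto1 came down to -0.28 with the scanner's processed signals. Gsta4, which conjugates the lipid aldehyde hydroxynonenal, differed by 0.25 (adjusted p = 0.224) and the mu transferase Gstm7 by 0.35 (adjusted p = 0.256), each with overlapping groups. Gsta4 fell to 0.14 without CTR2 and ONC4 and to 0.11 with processed signals. Gstp1, the pi transferase, differed by -0.02 (SE 0.09), between -0.08 and 0.03 over all settings.

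Of the 5 transferases not tested, Gsta2, Gstm3, Gsto2 and Gstt4 were well above background in 0 of 8 channels. Gstm1 was bright in all 8 and left out for a flag in ONC4. With flags not applied, Gstm1 lay between 0.89 and 1.16 in CTR, against values between 1.03 and 1.06 in ONC1 to ONC3, with 0.32 in the channel that carried the flag. The difference was -0.15 (SE 0.17, adjusted p = 0.7).

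Glutathione peroxidases reduce peroxides with glutathione, and 7 of 8 were tested, 2 higher and 5 lower with a median of -0.19 that was 0.00 without loess. Gpx4 is the selenoenzyme that reduces phospholipid hydroperoxides within membranes and is known for holding back ferroptosis. Its levels were 6.21, 6.04, 6.24 and 6.15 in CTR1 to CTR4, against 5.71, 5.80, 5.78 and 5.86 in ONC1 to ONC4. The highest ONC channel, ONC4, stayed below the lowest CTR channel, CTR2. The log2 fold change was -0.37 (SE 0.08), on 4 of 4 arrays, with an adjusted p of 0.0705, 0.0417 with the block and 0.0506 without CTR2 and ONC4. Both oligos of the gene gave -0.37. The difference was -0.70 without loess but -0.14 (adjusted p = 0.444) with the scanner's processed signals.

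Gpx1, the abundant cytosolic peroxidase, ran from 2.43 to 2.93 in CTR and from 2.40 to 2.50 in ONC, a difference of -0.20 (SE 0.12, adjusted p = 0.41) that was -0.11 without CTR3. Gpx3, the secreted form, differed by 0.12 (SE 0.19), by -0.05 without CTR4 and by 0.32 without loess. Gpx7, found in the endoplasmic reticulum, differed by -0.22 (adjusted p = 0.269) and Gpx6 by -0.19 (adjusted p = 0.464). Without loess Gpx7 was at -0.11 and Gpx6 at 0.00. With 1 channel left out, Gpx6 lay between -0.30 and -0.11. Gpx8, also of the endoplasmic reticulum, had a difference of 0.00 (SE 0.11), and Gpx5 was well above background in 0 of 8 channels.

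Gpx2, the peroxidase best known from the gut lining, spread most among the members. The levels were -3.00, -1.42, -3.16 and -2.63 in CTR1 to CTR4, against -0.50, -1.23, -0.62 and -2.76 in ONC1 to ONC4. Mgst3, a membrane transferase and peroxidase, had 1.12, 2.10, 1.38 and 1.36 in CTR, against 2.29, 2.39, 2.37 and 1.46 in ONC. Both genes were high in ONC1, ONC2, ONC3 and CTR2 and low in CTR1, CTR3, CTR4 and ONC4, the same division of channels as that of the median of the 9 RGC markers, whose part in the result was not tested. The division did not hold for Stmn2, which was 3.31 in CTR4 and 3.24 in ONC3.

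By label the difference of Gpx2 was 1.27 (SE 0.53, higher on 3 of 4 arrays, adjusted p = 0.249, 0.15 with the block) and that of Mgst3 was 0.63 (SE 0.26, 4 of 4 arrays, adjusted p = 0.24, 0.0881 with the block). Without CTR2 and ONC4 they were 2.14 (adjusted p = 0.0102) and 1.06 (adjusted p = 0.00862), and over all settings the adjusted p ran from 0.0102 to 0.48 for Gpx2 and from 0.00862 to 0.73 for Mgst3. A second oligo of Gpx2 was too dim to be kept. Its foreground over background was 2.03, 5.11, 1.82 and 1.74 in CTR1 to CTR4, against 7.22, 8.48, 6.67 and 11.3 in ONC1 to ONC4, and the 2 dyes cannot be compared there. The 8 members well above background in 0 channels gave 1.01 to 1.61 in CTR channels and 1.93 to 3.3 in ONC channels. Among the CTR channels this oligo was highest in CTR2, like the tested one. Among the ONC channels it was highest in ONC4, where the tested oligo was at 4.88, against 21.8 to 26.0 in the others.

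**Figure D2:**
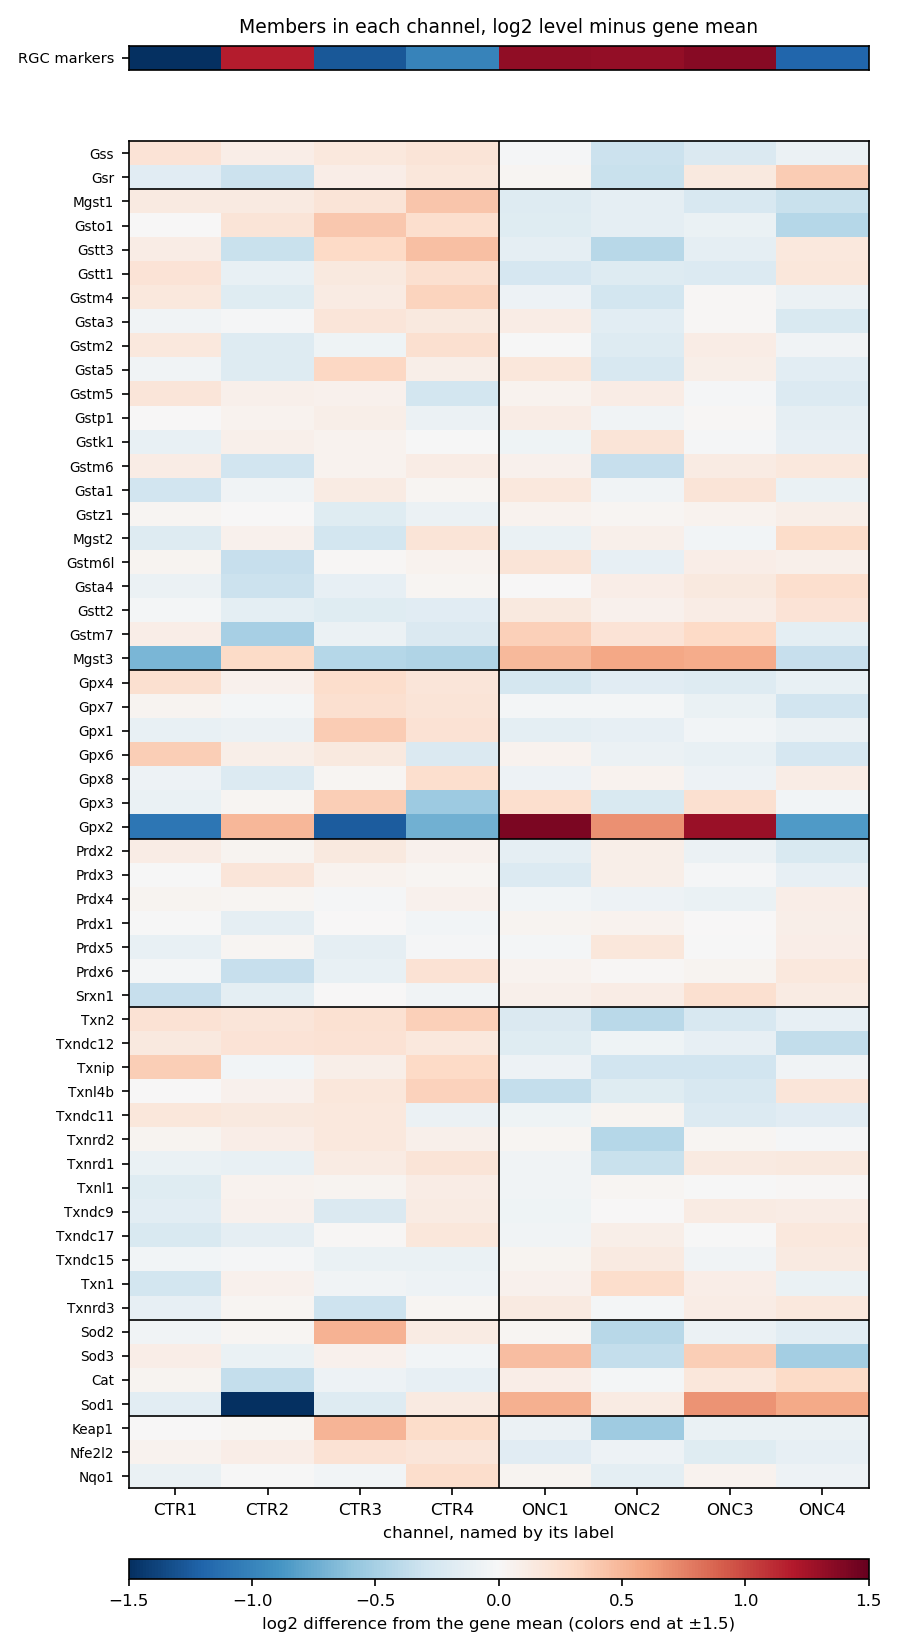
Log2 level of the 56 tested members in each channel minus the mean of that gene over the 8 channels, grouped by role, with the median of the RGC markers on top. Colors end at 1.5 in either direction. Gpx2 and Mgst3 follow the RGC marker median, while Txn2, Gpx4, Mgst1 and Gss divide by label, and Sod1 stands out in CTR2.

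Peroxiredoxins are the main scavengers of low peroxide levels. All 7 members with sulfiredoxin were tested, 4 higher and 3 lower, with a median of 0.10 that lay between -0.03 (without loess) and 0.12 over all settings and was 0.01 without CTR2 and ONC4. Srxn1, the sulfiredoxin that repairs overoxidized peroxiredoxins, had levels of 1.11, 1.31, 1.46 and 1.41 in CTR, against 1.53, 1.57, 1.70 and 1.58 in ONC. The groups did not overlap. The difference was 0.27 (SE 0.10, 4 of 4 arrays, adjusted p = 0.179, 0.0633 with the block).

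The cytosolic Prdx1 ran from 2.73 to 2.87 in CTR and from 2.88 to 2.96 in ONC, with no overlap. The difference of 0.10 (SE 0.07, adjusted p = 0.54) was 0.06 without CTR2 and 0.05 without CTR2 and ONC4. It was 0.03 without loess and 0.03 with processed signals. The cytosolic Prdx2, abundant in neurons and red blood cells, differed by -0.18 (SE 0.09, adjusted p = 0.314), and by -0.48 with an adjusted p of 0.0125 without loess. The mitochondrial Prdx3 differed by -0.13, Prdx4 of the endoplasmic reticulum by -0.06, and the more widely placed Prdx5 by 0.11. Prdx6, which acts on phospholipid peroxides with glutathione in place of thioredoxin, differed by 0.13 (SE 0.12). Adjusted p of these 4 lay between 0.483 and 0.72. Over all settings Prdx3 lay between -0.21 and -0.08, Prdx4 between -0.11 and -0.04, Prdx5 between -0.03 and 0.15, and Prdx6 between -0.01 and 0.23, with 0.01 without CTR2 and ONC4.

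Thioredoxins reduce disulfides in other proteins, and 13 of the 15 genes named Txn were tested, 5 higher and 8 lower with a median of -0.06. Over all settings that median ran from -0.16 (without CTR2 and ONC4) to 0.02 (without the filter on dim spots). Txn2, the mitochondrial thioredoxin that serves Prdx3, had the smallest p of all members. Its oligo of 60 bases lies at chr7:115834342-115843687 (rn4, minus strand) and spans 9346 bases of the genome, so its bases too are not adjacent there.
Txn2 oligo: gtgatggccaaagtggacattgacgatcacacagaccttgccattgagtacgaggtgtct
Levels were 1.84, 1.80, 1.85 and 1.98 in CTR1 to CTR4, against 1.40, 1.21, 1.38 and 1.49 in ONC1 to ONC4. The CTR channels all lay above the ONC channels, CTR2 and ONC4 included. The log2 fold change was -0.50 (SE 0.09), on 4 of 4 arrays, with an adjusted p of 0.0526, 0.029 with the block and 0.0421 without CTR2 and ONC4. Over all settings the difference lay between -0.56 and -0.31 and the adjusted p ran from 0.0102 to 0.202.

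Txndc12, a thioredoxin-like protein of the endoplasmic reticulum, had levels of 1.93, 1.98, 2.0 and 1.94 in CTR, against 1.60, 1.71, 1.66 and 1.41 in ONC. The 4 CTR channels lay close together, above all ONC channels. The difference was -0.37 (SE 0.09, 4 of 4 arrays), with an adjusted p of 0.0808 and 0.0396 with the block. Txnip, which binds and inhibits thioredoxin and limits glucose uptake, had -1.76, -2.17, -2.04 and -1.83 in CTR, against -2.20, -2.42, -2.42 and -2.18 in ONC. Here the groups nearly touched, with CTR2 at -2.17 and ONC4 at -2.18. The difference was -0.36 (SE 0.11, 4 of 4 arrays), with an adjusted p of 0.149 and 0.0378 with the block, and it was -0.16 (adjusted p = 0.366) without loess.

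Txn1, the cytosolic thioredoxin, ran from 3.04 to 3.37 in CTR and from 3.21 to 3.58 in ONC, a difference of 0.17 (SE 0.11, adjusted p = 0.45) that was 0.28 without CTR2 and ONC4 and 0.08 without loess. Txnrd1, the reductase of the cytosol, differed by -0.06 (SE 0.13), by -0.16 without CTR2 and ONC4 and by 0.33 without loess. Txnrd2, the mitochondrial reductase that serves Txn2, ran from -1.34 to -1.22 in CTR and was -1.35, -1.81, -1.35 and -1.40 in ONC. Its groups did not overlap, but ONC2 alone lay far down, and the difference of -0.19 (SE 0.11, adjusted p = 0.418) was -0.08 without that channel. Txndc2 and Txndc8, known from sperm, were well above background in 0 of 8 channels.

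Superoxide dismutases turn superoxide into hydrogen peroxide, which catalase splits. All 4 members were tested, 2 higher and 2 lower. Sod1, the cytosolic copper and zinc enzyme, had levels of 4.81, 3.29, 4.78 and 5.11 in CTR1 to CTR4, against 5.51, 5.09, 5.64 and 5.54 in ONC1 to ONC4. CTR2 lay far below the rest, and the groups overlapped at CTR4 and ONC2. The difference was 0.95 (SE 0.35, higher on 4 of 4 arrays, adjusted p = 0.2, 0.053 with the block), 0.54 at the lowest when a channel was left out and 0.51 without CTR2 and ONC4.

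Sod2, the mitochondrial manganese enzyme, ran from -0.02 to 0.56 in CTR and from -0.38 to 0.06 in ONC, a difference of -0.31 (SE 0.15, adjusted p = 0.297) that was -0.19 without CTR3 and -0.13 with processed signals. The secreted Sod3 had -1.27, -2.09, -1.37 and -2.24 in ONC, with ONC1 and ONC3 above and ONC2 and ONC4 below all CTR channels, which ran from -1.83 to -1.63. Its difference was -0.01 (SE 0.22), and it was between -0.17 and 0.15 over all settings. Cat, the peroxisomal catalase, ran from -2.45 to -2.05 in CTR and from -2.12 to -1.80 in ONC, a difference of 0.26 (SE 0.11, 4 of 4 arrays, adjusted p = 0.253) that was 0.45 (adjusted p = 0.0276) without loess and 0.13 (adjusted p = 0.457) without CTR2 and ONC4.

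The Nrf2 axis has 3 members, all tested and all lower by their means. Nfe2l2, which encodes Nrf2, had levels of 1.73, 1.78, 1.90 and 1.86 in CTR, against 1.51, 1.60, 1.5 and 1.55 in ONC. The groups did not overlap. The difference was -0.28 (SE 0.08, 4 of 4 arrays, adjusted p = 0.109, 0.0583 with the block, 0.0269 without loess). Keap1, the adaptor that marks Nrf2 for breakdown, had -0.60, -0.58, -0.09 and -0.33 in CTR, against -0.69, -1.14, -0.70 and -0.71 in ONC, also without overlap. Its difference was -0.41 (SE 0.15, 4 of 4 arrays, adjusted p = 0.188, 0.0598 with the block). Nqo1, the quinone reductase often used as a readout of Nrf2, differed by -0.06 (SE 0.10, adjusted p = 0.812), and by 0.27 without loess.

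**Figure D3:**
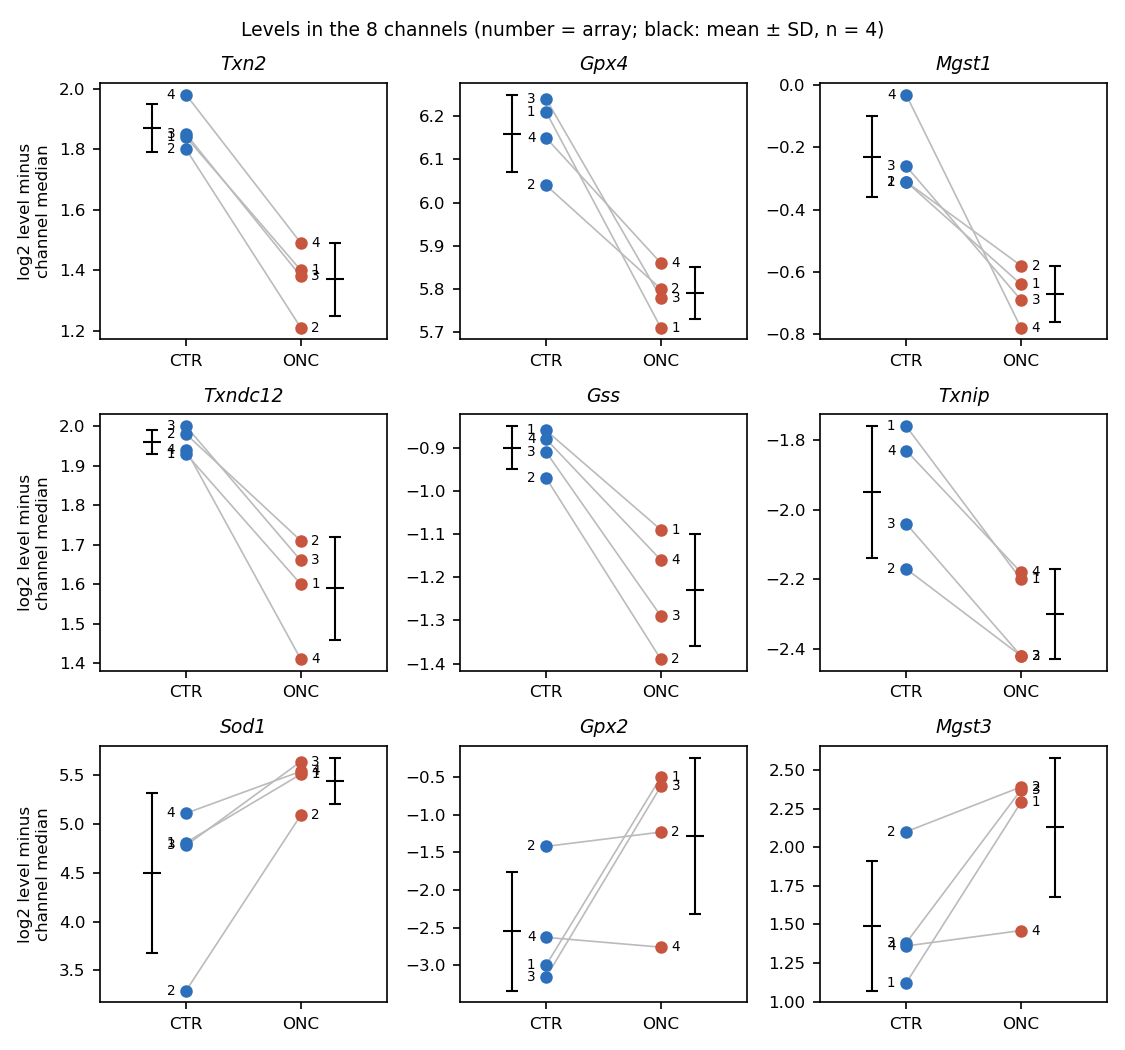
Log2 level over the channel median of 9 members in the 4 CTR (blue) and 4 ONC (red) channels, with the number of the array beside each point, gray lines joining channels of an array and black marks for mean ± SD. The vertical scale differs between panels. Lines run downward on every array for the 6 genes in the upper panels, while Gpx2 and Mgst3 differ less on arrays 2 and 4 than on arrays 1 and 3.

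Promoters were read for the motifs of this pathway, because Nrf2 binds the antioxidant response element. RefSeq (build GRCr8) gave 63 promoters for 57 of the 66 members, each taken as the 250 bases before the start, and none for Gpx8, Gsr, Gstm6l, Gstt1, Gstt2, Mgst2, Prdx6, Sod3 and Txnip. The element's core, TGACNNNGC on either strand, was found in 11 of the 63 (17.5%) and in 10.1% of 33469 promoters. The GC box GGGCGG on either strand, whose GC may also be the GC that ends a core, was found in 37 (58.7%) and in 30.5% of all. Of the 7 promoters of the members called with the block, 0 held the core and 5 held a GC box. A match describes letters and is neither a bound site nor a cause.

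Promoters of Txn2 and Gpx4 are shown as members called with the block that hold a GC box, and those of Gclm, Prdx1 and Gpx2 as examples with the core, from a dim member, a member near 0 and the member with the widest spread. Capitals mark the GC box in Txn2 (chr7:111390941-111391190, minus strand, 2 matches) and in 1 of 2 promoters of Gpx4 (chr7:10303630-10303879, minus strand, 4 matches, the 2 farthest from the start sharing a base). They mark the core in Gclm (chr2:213031885-213032134, plus strand), Prdx1 (chr5:135383656-135383905, plus strand) and Gpx2 (chr6:101230034-101230283, minus strand), with 1 match each. All coordinates are on GRCr8.
Txn2 promoter: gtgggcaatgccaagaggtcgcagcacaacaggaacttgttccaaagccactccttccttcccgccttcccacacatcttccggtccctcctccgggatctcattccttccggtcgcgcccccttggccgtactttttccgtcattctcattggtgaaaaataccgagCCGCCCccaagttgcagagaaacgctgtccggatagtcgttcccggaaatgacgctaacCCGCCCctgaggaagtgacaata
Gpx4 promoter: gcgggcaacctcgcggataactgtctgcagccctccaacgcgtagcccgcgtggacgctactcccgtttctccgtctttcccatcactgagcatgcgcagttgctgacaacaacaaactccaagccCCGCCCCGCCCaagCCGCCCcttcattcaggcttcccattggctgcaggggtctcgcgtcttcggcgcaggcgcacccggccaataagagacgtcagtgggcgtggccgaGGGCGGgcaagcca
Gclm promoter: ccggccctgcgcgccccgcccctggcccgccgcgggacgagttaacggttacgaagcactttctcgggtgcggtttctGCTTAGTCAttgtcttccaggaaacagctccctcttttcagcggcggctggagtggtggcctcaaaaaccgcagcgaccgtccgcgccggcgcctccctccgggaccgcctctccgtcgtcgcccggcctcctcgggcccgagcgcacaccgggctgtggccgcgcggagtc
Prdx1 promoter: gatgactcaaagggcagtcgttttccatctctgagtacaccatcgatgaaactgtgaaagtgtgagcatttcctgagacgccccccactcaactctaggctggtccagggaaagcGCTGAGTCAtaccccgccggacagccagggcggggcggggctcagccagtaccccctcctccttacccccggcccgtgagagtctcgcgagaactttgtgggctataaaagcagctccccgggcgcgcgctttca
Gpx2 promoter: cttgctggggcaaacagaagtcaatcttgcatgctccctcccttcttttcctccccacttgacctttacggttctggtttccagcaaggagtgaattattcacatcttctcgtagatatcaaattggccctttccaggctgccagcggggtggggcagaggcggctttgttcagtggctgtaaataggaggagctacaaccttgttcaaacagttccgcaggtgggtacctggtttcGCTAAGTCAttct
The core begins 172 bases before the start in Gclm, 135 in Prdx1 and 13 in Gpx2.

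Genes that feed or use the same chemistry were taken from 5 lists, 73 genes on the array of which 58 were tested. In limma 0 of them were called (all genes 0.497%) and 20 (12 higher, 8 lower) were under 0.05 before adjustment (all genes 18.6%). The t-test alone gave 16 before adjustment (all genes 16.4%) and 0 after it. With the array as a block 7 were called (all genes 7.69%), Maoa higher and Oplah, Slc3a2, Nxn, Msrb1, Blvra and Ncf1 lower. The median log2 fold change was 0.00, with 29 genes higher and 29 lower.

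Glutathione supply and turnover had 14 genes tested, 10 higher and 4 lower, with a median of 0.09. Oplah, which frees glutamate from oxoproline, fell with the block by 0.46 (adjusted p = 0.139, 0.0405 with the block), on 4 of 4 arrays. Slc3a2, the heavy chain of the cystine importer, differed by -0.32 (adjusted p = 0.218, 0.0457 with the block), on 4 of 4 arrays. Its partner chain Slc7a11 differed by 0.13 (adjusted p = 0.718), and by 0.05 to 0.27 with 1 channel left out. Ggct, which makes oxoproline, differed by 0.39 (adjusted p = 0.176), so that neighbors in the same cycle had opposite signs. NADPH supply had 10 tested genes with a median of -0.04 and 0 calls, with Me1, the malic enzyme, at 0.31 (adjusted p = 0.223, 0.0475 without CTR2 and ONC4) and Mthfd1 at 0.13 (adjusted p = 0.433).

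Glutaredoxins and methionine sulfoxide reductases had 10 tested genes, 5 higher and 5 lower, with a median of -0.04. Nxn, a nuclear relative of thioredoxin, differed by -0.46 (adjusted p = 0.0883, 0.0498 with the block) and Msrb1, a selenoenzyme that repairs oxidized methionine, by -0.34 (adjusted p = 0.121, 0.0486 with the block), each on 4 of 4 arrays. Neither overlapped between groups. Nrf2 partners and other targets had 14 tested genes, 6 higher and 8 lower, with a median of -0.07. Blvra, which turns biliverdin into bilirubin, had -0.71, -0.71, -0.52 and -0.34 in CTR, against -1.14, -1.27, -1.07 and -0.91 in ONC. The difference was -0.53 (SE 0.12, adjusted p = 0.0713, 0.029 with the block), and -0.64 (adjusted p = 0.0483) without CTR2 and ONC4. Nfe2l1, a relative of Nrf2, differed by 0.38 (adjusted p = 0.0883), opposite in sign to Nfe2l2.

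Oxidant sources had 10 tested genes of 16, 4 higher and 6 lower, with a median of -0.09. Ncf1, a subunit of the phagocyte NADPH oxidase, had 0.42, 0.12, 0.40 and 0.54 in CTR, against -0.21, -0.04, -0.17 and -0.26 in ONC. The groups did not overlap. The difference was -0.54 (SE 0.11, 4 of 4 arrays, adjusted p = 0.0575, 0.0445 with the block, 0.0365 without CTR2 and ONC4). Cyba, another subunit of that oxidase, differed by -0.36 (SE 0.23, lower on 4 of 4 arrays, adjusted p = 0.459, 0.148 with the block), with overlapping groups. With 1 channel left out, Cyba lay between -0.48 and -0.16. Maoa, the monoamine oxidase that releases hydrogen peroxide, had -0.61, -0.33, -0.61 and -0.66 in CTR, against -0.05, -0.09, -0.07 and -0.30 in ONC, a difference of 0.42 (SE 0.10, 4 of 4 arrays, adjusted p = 0.0837, 0.0391 with the block). CTR2 was the highest of its group and ONC4 the lowest, but the groups did not overlap. Without CTR2 and ONC4 the difference of Maoa was 0.55 (adjusted p = 0.0321).

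**Figure D4:**
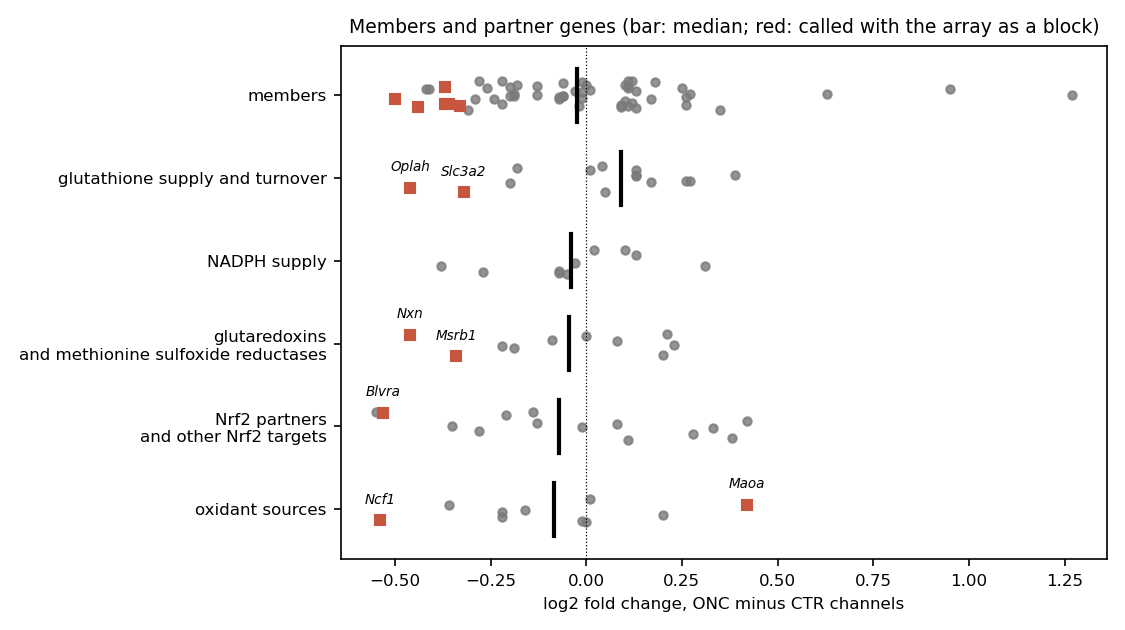
Log2 fold change, ONC minus CTR channels, of each tested member and of the tested genes of 5 partner lists, with a bar at the median of each list. Red squares are genes called with the array as a block. The medians lie between -0.09 and 0.09, and Maoa is the only red square to the right of 0.

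Markers of the cells that hold these enzymes were read in the same way, as the median difference of a list from its gene means in each channel. Müller glia markers (9 of 10 tested, brightest on average Dkk3) lay between -0.08 and 0.18 in CTR, against values between -0.27 and 0.09 in ONC, with 4 higher and 5 lower. Of these, Slc1a3 at -0.56 (adjusted p = 0.244, 0.0336 with the block) and Vim at -0.41 (adjusted p = 0.0799, 0.0409 with the block) were called lower with the block. Glul was at 0.58 (adjusted p = 0.271, 0.131 with the block), and between 0.29 and 0.72 with 1 channel left out. Microglia and macrophage markers (10 of 10, brightest Ctss) were 0.06, -0.39, 0.51 and 0.56 in CTR, against -0.32, -0.08, -0.37 and -0.09 in ONC, and 9 of 10 were lower in ONC, as Ncf1 was. Astrocyte and reactive glia markers (4 of 5, brightest Serpina3n) were -0.40, -0.20, 0.85 and 1.76 in CTR and -0.41 to -0.01 in ONC, with 4 of 4 lower. Both lists were highest in CTR3 and CTR4, where Gpx1 and Keap1 were also highest, and their part in these results was not tested.

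The remaining lists stood for other cells of the eye. Bipolar markers (6 of 6, brightest Pcp2) were -0.14, -0.23, 0.00 and -0.06 in CTR, against 0.18, -0.12, 0.19 and 0.16 in ONC, with 5 of 6 higher. Amacrine markers (6 of 6, Tfap2b) lay between -0.23 and 0.17 over the 8 channels, with 3 higher and 3 lower. Among them Slc6a9 was called lower with the block, at -0.41 (adjusted p = 0.121, 0.0334 with the block), without overlap. Brightness ranks oligos and not transcripts. Endothelium and pericyte markers (7 of 8, Kdr) lay between -0.33 and 0.18, with 4 higher and 3 lower. Pigment epithelium markers (5 of 7, Ttr) were 0.01, -0.31, -0.43 and 0.31 in CTR, against 0.45, -0.60, 0.23 and 0.39 in ONC, with 5 of 5 higher. Other lists also leaned to 1 side by label. Cornea and conjunctiva markers (4 of 6, Krt15) lay between -0.25 and 0.26, with 3 of 4 higher, and red blood cell markers (4 of 7, Hbb-b1) between -0.59 and 0.46, with 4 of 4 higher. Lens markers (11 of 11, Crygs) were 1.22 in CTR2, where Sod1 was lowest, and between -0.64 and 0.39 in the other 7 channels, with 9 of 11 lower. The part of these cells in the members' values was not tested.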

How the data were processed

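Total RNA of 8 retinas was read on 4 two-color Agilent rat arrays. The authors deposited the intensity of each spot per channel, as mean foreground, median local background and a signal processed by the scanner software (12.0.3.1 per the file headers, 11.1.19.1 in the processing notes). Spots that were controls, had an outlier flag, or had a foreground under 2 times background in any of 8 channels were left out, keeping 27371 of 42877 spots and 16307 genes. Background was subtracted, arrays were normalized by loess, channels were centered on their median, and spots were averaged to oligos and genes on the log2 scale.

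Every adjusted p is from limma 3.58.1 in R 4.3.3 (two-sided, Benjamini-Hochberg over all genes). The steps were tried on simulated data with changes of known size. Those data held no dye effect particular to a gene and no exchanged labels, so the trial does not bear on either. Correlations of deviations from group means were 0.15, 0.55, 0.40 and 0.49 within arrays 1 to 4, and -0.51 to 0.17 between a CTR and an ONC channel of different arrays. CTR1 correlated at 0.15 with ONC1 of its own array and at 0.17 with ONC2 of another. The array, given by the labels' numbers, was taken to pair the channels, and a fit with it as a block stands beside the unpaired fit. Members, partner genes and marker lists were chosen with earlier results of these data known. Genes named are those called in either fit, the 8 members with the smallest p per direction, members with set roles, and 2 or more per partner list. Others, such as Gpx6, Gpx7, Gpx8, Slc7a11 and Cyba, were named after their values were seen.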

Additional observations from a re-analysis of the deposited data

Results flagged for a closer look

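A channel was marked where its gap to the nearest of the other 3 channels of its group took up more of the group's range than Dixon's critical value allows. Of 128 groups of 4 values checked, 8 held such a channel, and chance flags about 1 in 20 groups. The log2 level of Mgst3 in ONC4 was 1.46, while ONC1 to ONC3 had 2.29 to 2.39. The RGC marker median in ONC4 was -1.19, against 1.32 to 1.37. Keap1 in ONC2 was -1.14, against -0.71 to -0.69, and Txnrd2 in ONC2 was -1.81, against -1.40 to -1.35. Maoa was marked in both groups, with -0.33 in CTR2 against -0.66 to -0.61, and -0.30 in ONC4 against -0.09 to -0.05. The bipolar marker median in ONC2 was -0.12, against 0.16 to 0.19. The median of the cornea and conjunctiva markers in CTR1 was 0.00, against -0.17 to -0.15.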

How the results depend on the processing

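Members called numbered 0 in limma without a block (all genes 0.497%) and 6 with the array as a replicate block (all genes 7.69%). Partner genes called went from 0 to 7. Over all genes the calls went from 81 to 1254, marker genes such as Slc1a3, Vim and Slc6a9 among them. The methods' t-test before adjustment, without their fold cutoff, gave 15 members (partners 16 of the 58 tested, all genes 16.4%). Median scaling without loess gave 15 (partners 12, all genes 19.6%) and Aquantile 4 (partners 3, all genes 2.53%). Without CTR2 and ONC4 there were 3 (partners 4, all genes 2.54%). The members' median was then -0.08 in place of -0.03 (all genes -0.06 in place of -0.01). In that setting 24 in place of 14 members had groups without overlap (31.7% in place of 12.7% of all genes). Leaving out each channel in turn gave 0 calls (all genes 38 without ONC2 and 0 in each other leave-out). It gave 10 to 18 members at an unadjusted p under 0.05 (share of all genes not given), and a partner median of -0.06 to 0.01. Of the named members' values under the alternatives, 486 kept direction and side of the threshold, 23 passed it and 19 changed sign. The changes of sign, in members that did not pass the test, were Gsr at -0.09 and Gstp1 at 0.03 without CTR2 and ONC4, Gstp1 up to 0.02 in the leave-outs (from -0.07), Nqo1 up to 0.02 (from -0.10) and 0.27 without loess, Txnrd1 up to 0.04 (from -0.12) and 0.33 without loess, Gpx3 down to -0.05 without CTR4 (up to 0.26), Prdx5 at -0.03 without loess and Prdx6 at -0.01 with processed signals. Sod3 ran from -0.17 to 0.15 in the leave-outs and was 0.12 without CTR2 and ONC4, 0.13 without loess, 0.03 with processed signals and 0.01 without the filter on dim spots. The cause was not tested. Signal over background limits 8 dim members, which were not tested.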
